A study of Mus musculus with 16 samples.

Results

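Trim17 and Madcam1 are 2 genes of the 47729 with values in the P4 mouse cochlea data, and they were chosen by the size of their LFC (log2 fold change) between the ribosome immunoprecipitates (IP) of damaged and control cochleae. In DTR IP against control IP they ranked 2 and 3 among 16994 tested genes. Egr4, an immediate early transcription factor, ranked 1, so the pair held the largest rise only with Egr4 set aside. Because DTR IP and control IP chose both genes, their values in these libraries are given below as a description, without a test.

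The 16 libraries came from 4 control pools and 4 DTR pools, each sequenced as input and as IP. Control mice were GLAST CreERT/+; Rpl22 HA/+, and DTR mice also carried Lgr5 DTR/+, a knock-in that places the diphtheria toxin (DT) receptor under the Lgr5 promoter on 1 copy of that gene. According to the methods, mice of both genotypes received DT and tamoxifen at P1, while the labels describe the control libraries as untreated and the others as DTR treated. GLAST (Slc1a3) drives the Cre that switches on the HA tag of the ribosomal protein Rpl22 in the greater epithelial ridge (GER), inner phalangeal cells and other GLAST-expressing cells, each replicate was a pool of cochleae from several mice, and the HA-tagged ribosomes were pulled from the homogenate after a small part was set aside as input.

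The libraries held between 28089836 and 41966310 counted reads, and each library was most like the others of its own group in 16 of 16 cases. Lgr5, the gene that carries the receptor, fell from 36.6 ± 3.99 to 9.38 ± 1.40 CPM in IP (SD, n = 4; LFC -1.93, limma adjusted p = 3.5e-08) and from 63.3 ± 3.03 to 15.9 ± 3.69 CPM in input (LFC -2.0, limma adjusted p = 2.2e-08). Loss of Lgr5+ cells, the knock-in copy and a lower level per cell cannot be told apart in these pooled tissues, where fewer cells of a type and less RNA per cell look alike. Slc1a3, which the labelled Glast-Cre+ cells should express, had a mean of 236 ± 21.9 CPM in the IP of control pools and of 215 ± 18.4 CPM in that of DTR pools, and its LFC of -0.11 did not pass the test (limma adjusted p = 0.50).

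Trim17 encodes an E3 ubiquitin ligase of the tripartite motif (TRIM) family, whose members join a RING finger to B-box and coiled-coil parts and mark other proteins with ubiquitin. In neurons it is known for promoting apoptosis, through the marking of the survival protein Mcl1 for degradation. Madcam1 encodes an adhesion molecule of the immunoglobulin superfamily that is best known from the venules of gut lymphoid tissue, where it holds passing leukocytes through the integrin made of Itga4 and Itgb7. Inflammatory cytokines raise Madcam1 through NF-kappaB, and the homeobox factor Nkx2-3 keeps it on in gut vessels.

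In GRCm38, Trim17 (ENSMUSG00000036964) lies on the plus strand at chr11:58954685-58973098 with 3736 bases of annotated exon, and Madcam1 (ENSMUSG00000020310) on the plus strand at chr10:79664559-79668537 with 1436 bases of exon. The promoter of Madcam1, from 250 bases before to 50 bases after the start (GRCm38.p6, RefSeq, chr10:79664309-79664608, plus strand), is printed because NF-kappaB genes are among those that moved with it. Capitals mark its matches to the NF-kappaB consensus.
Madcam1: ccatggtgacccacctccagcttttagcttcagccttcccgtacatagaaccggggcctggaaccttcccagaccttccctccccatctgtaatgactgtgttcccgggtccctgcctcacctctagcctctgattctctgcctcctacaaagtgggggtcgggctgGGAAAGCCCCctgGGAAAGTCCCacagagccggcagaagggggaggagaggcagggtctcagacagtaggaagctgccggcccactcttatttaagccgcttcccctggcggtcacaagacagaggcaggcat

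Both matches read in the consensus direction on the minus strand and do not overlap: GGAAAGCCCC begins 83 bases and GGAAAGTCCC begins 70 bases before the start. A match to this consensus on either strand was found in 8.46% of 32851 promoters of the same length, and 2 or more matches in 0.521%. The heat shock factor pattern GAANNTTC matched once in the Madcam1 window, 190 bases before the start, as it did at least once in 7.86% of promoters. Other patterns searched on both strands had no match in this window, namely AP-1 TGANTCA (in 7.81% of promoters), CRE TGACGTCA (1.79%), ATF4-CHOP TGATGCAA (0.895%), NFAT TGGAAA (21.4%) and EGR GCGGGGGCG or GCGTGGGCG (3.47%). The matches are letters in a window and say nothing on binding.

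Trim17 was low in control cochleae and abundant in DTR cochleae. In control input it stood at 0.834, 0.310, 1.14 and 1.19 CPM (reads on the gene, scaled by all counted reads of the library) in pools 1 to 4. In control IP it stood at 1.82, 1.57, 1.79 and 1.47 CPM. No control library reached 2 CPM, and the IP libraries were each above every input library. In DTR input the values were 156, 147, 95.5 and 138 CPM, and in DTR IP 145, 129, 72.8 and 82.1 CPM. All 8 DTR libraries lay above all 8 control libraries, with pool 3 the lowest of the DTR libraries in both input and IP.

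In input, which did not enter the choice of genes but comes from the same pools, Trim17 rose by an LFC of 6.57 (SE 0.25, 4 against 4 libraries, limma adjusted p = 3.9e-12), which ranked 1 among tested genes on this scale. With a pseudocount of 0.1 in place of 0.5 the LFC in input was 7.11 for Trim17, 6.99 for Madcam1 and 7.93 for Egr4, so the order of the 3 genes depended on the pseudocount. In quantile-normalized CPM, the lowest DTR input value was 76.6 times the highest control input value. Summed reads gave a fold of 150 (95% interval 127 to 179, counting error only) from 18391 reads against 139. In IP, the LFC was 5.48 (SE 0.25) and summed reads gave a fold of 64.2 (interval 56.2 to 73.7) from 12846 reads against 221, both as a description. LFC is taken on log2 of normalized CPM plus 0.5, which holds down the fold of a gene this low in controls.

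Madcam1 was at or near the counting limit in all 8 control libraries. Control input held 0.119, 0.113, 0.0725 and 0.233 CPM, and control IP 0.0897, 0.291, 0.0588 and 0.0327 CPM, which correspond to between 1 and 10 reads a library. At these depths 3 reads are worth between 0.0715 and 0.107 CPM, so no order among the control libraries can be read. DTR input held 26.6, 31.8, 30.9 and 35.7 CPM, and DTR IP 17.6, 22.9, 22.6 and 19.96 CPM. The groups did not overlap, and the DTR libraries of a group differed little from each other, with an SD of 3.75 CPM around a mean of 31.3 in input and of 2.48 around 20.8 in IP. The difference between the IP and the input LFC was -0.55 for Madcam1 and -1.09 for Trim17, as a description.

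In input, Madcam1 rose by an LFC of 5.60 (SE 0.18, n = 4 and 4, limma adjusted p = 2.7e-13). It entered the tested genes only through the DTR groups, where it is high, since no control library reached 0.5 CPM, and that p is therefore not support by itself. With no filter on low values the same LFC had an adjusted p of 2.4e-10. Summed reads gave a fold of 234 (interval 153 to 378) from 4325 reads against 21. In IP, the LFC was 5.05 (SE 0.18) and the fold 171 (interval 105 to 300), from 2482 reads against 16, both as a description. Trim17, unlike Madcam1, met the filter in control IP as well. Among tested genes, 7.17% were higher and 5.21% lower in DTR input at an adjusted p under 0.05, against 8.44% and 7.30% in DTR IP.

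**Figure D1:**
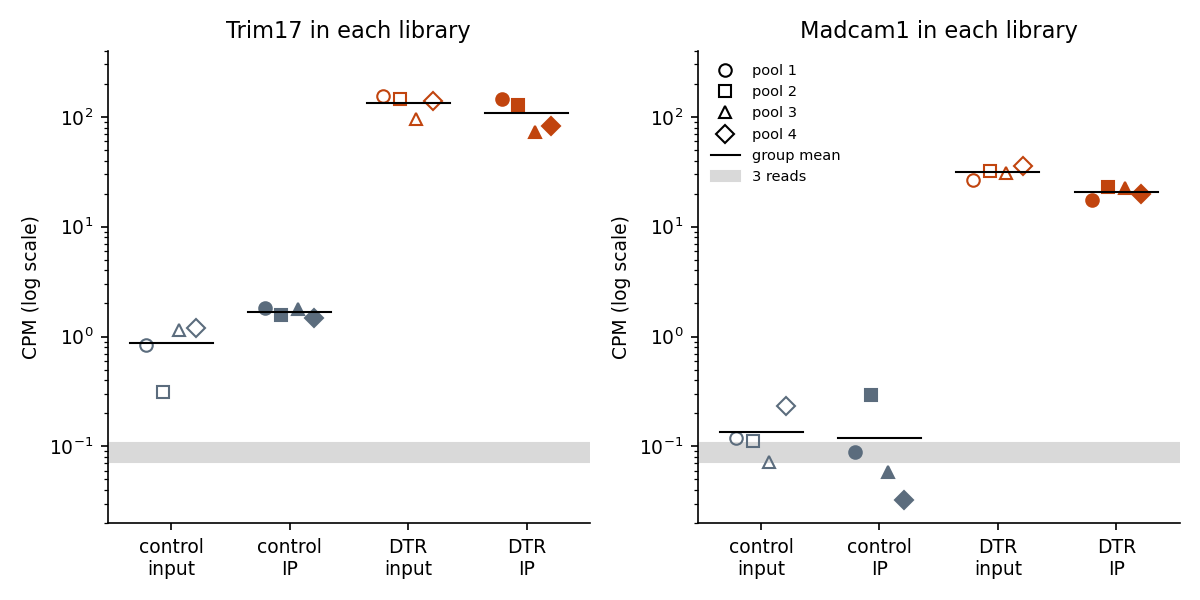
CPM (log axis) of Trim17 and Madcam1 in each library of the 4 groups, with open symbols for input, filled symbols for IP, 1 symbol shape per replicate number, a line at the group mean and a grey band where 3 reads lie. Every DTR library of Trim17 lies at or above 72.8 CPM and every control library at or below 1.82 CPM, while Madcam1 in controls sits around the band.

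Per kb of annotated exon, Trim17 was the more abundant of the pair. It stood at 28.7 ± 9.46 CPM per kb in DTR IP against 14.5 ± 1.73 for Madcam1 (SD, n = 4), and at 35.9 ± 7.19 against 21.8 ± 2.61 in DTR input. The lowest Trim17 library of each DTR group was above the highest Madcam1 library of the same group. The spread differed too: DTR pools 3 and 4 had the lowest Trim17 in IP and DTR pool 1 the lowest Madcam1, and the deviations of the pair from their group means over the 16 libraries had a Pearson r of -0.22, given as a description.

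The genes next to the pair in rank had values close to it. Egr4 held 64.7, 37.7, 11.6 and 26.7 CPM in DTR IP against 0 to 8 reads a library in control IP, with an LFC of 5.65 (SE 0.45). On the log2 scale, though not in CPM, its DTR IP libraries spanned a wider range than those of Trim17. They did so on both scales against Madcam1, again with pool 3 the lowest for Egr4. Below the pair came the predicted gene Gm6311 with an LFC of 4.83, Eda2r, a receptor of the TNF receptor family, with 4.82, Gm11274 with 4.73, and the exonuclease gene Isg20 with 4.45.

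The IP level of each gene was set against its input level pool by pool, as IP over input CPM. Both are scaled to all counted reads of their library, so the ratio is relative to other genes and is not a recovered fraction. In DTR pools the ratio for Trim17 ran from 0.593 to 0.930 (median 0.821) and for Madcam1 from 0.559 to 0.731 (median 0.692). In control pools the ratio for Trim17 ran from 1.24 to 5.07, on between 11 and 61 reads a library, and for Madcam1 it could not be read at these counts. Both members were thus below 1 in all 4 DTR pools, as was Slc1a3, the gene that drives the Cre.

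Markers of other cell types moved as well, and their part in the results was not tested. The shares of all tested genes that passed were 8.44% upward and 7.30% downward in IP, and 7.17% and 5.21% in input. The summed level of 10 endothelial markers was 119 to 145 CPM in control IP, against 179 to 201 CPM in DTR IP, and 321 to 374 and 389 to 506 CPM in the inputs. Of these, Pecam1, which is also in the adhesion list below, Emcn and Erg passed upward in IP (3 of 10 tested), and Emcn in input. The summed level of 12 leukocyte markers was 21.0 to 31.0 CPM in control IP, against 45.4 to 75.8 CPM in DTR IP, and 120 to 129 and 171 to 275 CPM in the inputs, and 7 of 10 tested passed upward in each. No marker of either list was at 0 in every library. Schwann cell markers were lower (2 of 8 passed in IP and 7 of 8 in input, median LFC -0.43 and -1.05), as were supporting cell and GER markers (7 of 10 in IP and 8 of 10 in input, median -1.48 and -1.76, with Epyc higher in input). Of 10 hair cell markers, Myo6, Otof and Slc17a8 were higher in IP and Atoh1 lower in both. Of 10 neuron markers, Syt1 was lower in both.

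The IP over input ratio set the members beside those markers. In DTR pools it ran from 0.250 to 0.307 for leukocyte markers, from 0.388 to 0.472 for endothelial markers, from 0.376 to 0.430 for Schwann cell markers and from 0.337 to 0.449 for hair cell markers. Trim17 and Madcam1 were above each of these ranges in all 4 DTR pools. This did not hold for the neuron list, whose range overlapped those of both members. Within pools, both lay above the neuron list in pools 1 to 3 and below it in pool 4 (0.593 and 0.559 against 0.650). For 10 supporting cell and GER markers the ratio ran from 0.852 to 1.26, for Slc1a3 from 0.762 to 0.817 and for neuron markers from 0.586 to 0.650. List ratios are of summed CPM, so the most abundant genes of a list weigh most. Lgr5, which is in the GER list, ran from 0.454 to 0.848, a range that holds all 4 Madcam1 values. Compared within each pool, both Madcam1 and Trim17 lay below the summed GER list in all 4 DTR pools. Madcam1 also lay below Slc1a3 in all 4, while Trim17 lay above Slc1a3 in pools 1 and 2 and below it in pools 3 and 4. The ratio does not assign a gene to a cell type, since a gene switched on in several types gives a mixture.

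**Figure D2:**
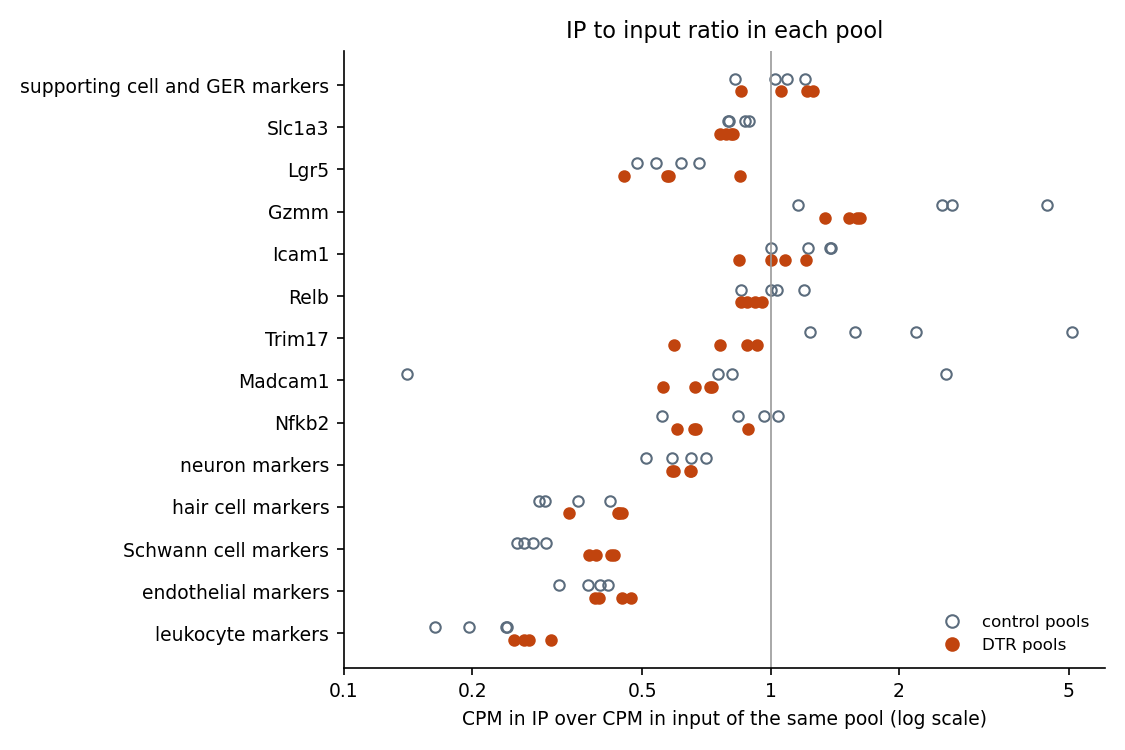
CPM in IP over CPM in input of the same pool (log axis) for the 2 genes, for genes named in the text and for summed marker lists, with open circles for the 4 control pools and filled circles for the 4 DTR pools. In DTR pools Trim17 (0.593 to 0.930) and Madcam1 (0.559 to 0.731) lie between the endothelial list, at or below 0.472, and the upper part of the GER list, up to 1.26.

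Genes around Trim17 had far smaller LFCs. Of 12 annotated genes that overlap it or lie within 50 kb, 7 were tested and 1 passed. It passed upward in input, as did 7.17% of all tested genes. This gene, the histone pseudogene Hist3h2bb-ps (LFC 0.81, limma adjusted p = 0.0084), lies 0.173 kb from the Trim17 start and also passed in IP under 3 of the alternatives. Hist3h2bb-ps met the filter on low values only through the DTR groups, where it is higher, so that p is not support by itself. Hist3h2a, a histone gene that shares its start coordinate with the longer Trim17 transcript, had LFCs of -0.19 in IP and 0.15 in input, and 2310058D17Rik, which overlaps on the minus strand, had 0.34 and 0.46. Neither passed in IP or input, except that 2310058D17Rik passed in input without quantile normalization (adjusted p = 0.037) and with median centring (0.050). Trim11, another TRIM ligase gene 5.00 kb downstream, stood at 31.8 ± 3.46 CPM in the IP of control pools and 39.8 ± 5.87 in that of DTR pools and did not pass (LFC 0.28 in IP, 0.16 in input, limma adjusted p = 0.32 and 0.67). The library kit does not mark strand, so reads from overlapping genes of opposite strands cannot be told apart. As counted, 2310058D17Rik stood at 2.93 ± 0.131 CPM in DTR IP, a value under the same limit. Its part in the reads on Trim17 was not tested.

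Near Madcam1, 1 gene rose and 1 fell among 7 tested of 9 annotated within 50 kb. Of all tested genes, 8.44% rose and 7.30% fell in IP, and 7.17% and 5.21% in input. Gzmm, which encodes granzyme M, a protease of cytotoxic lymphocytes, lies 20.5 kb downstream. It held 3.62, 5.12, 3.12 and 1.80 CPM in control IP, against 34.4, 31.7, 23.6 and 29.5 CPM in DTR IP. In the inputs it held 1.36, 1.15, 1.23 and 1.55 CPM in controls and 21.3, 23.7, 14.8 and 19.2 CPM in DTR. Gzmm did not overlap between treatments and rose by an LFC of 2.86 in IP (SE 0.20, limma adjusted p = 7.3e-09) and 3.40 in input (SE 0.20, limma adjusted p = 7.0e-10). Unlike Madcam1, it was higher in IP than in input in all 8 pools, by a ratio of 1.34 to 1.62 in DTR pools.

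The gene next to Madcam1, Tpgs1, which encodes a tubulin polyglutamylase subunit and begins 0.832 kb beyond the Madcam1 end, had LFCs of 0.44 in IP and 0.42 in input and did not pass (limma adjusted p = 0.16 and 0.21). Once replicate numbers were blocked, these LFCs passed, at adjusted p = 0.011 and 0.017. Odf3l2, an outer dense fibre gene 18.8 kb upstream, fell with LFCs of -1.34 in IP (limma adjusted p = 5.1e-04) and -1.20 in input (adjusted p = 0.0017), from control means under 1 CPM. It met the filter on low values only through control libraries, where it is higher, so these p values are not support by themselves. Shc2, Cdc34, Bsg and Hcn2 did not pass. Madcam1 lies on the same chromosome as the Lgr5 knock-in, 35.8 Mb from it. Of 782 tested genes on chromosome 10, 1.15% were higher in DTR IP by the full criteria (adjusted p under 0.05, absolute LFC of at least 1 and a separation above 1.5) against 1.12% of all tested genes, and 1.53% against 1.34% in input. The shares that were lower were 1.92% against 1.34% in IP and 0.767% against 1.00% in input.

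**Figure D3:**
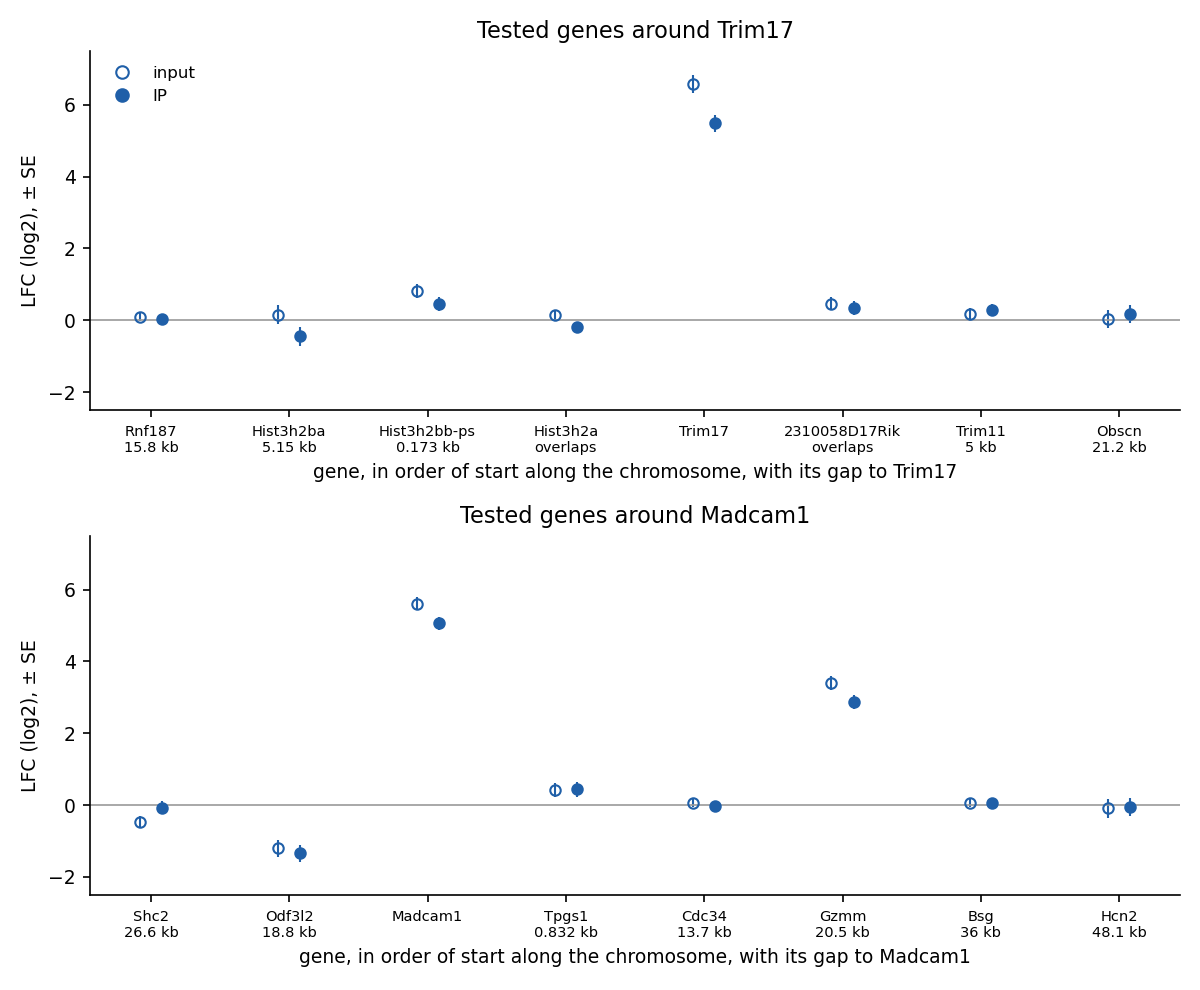
LFC (log2) with its SE in input (open circles) and IP (filled circles) for each tested gene that overlaps Trim17 or Madcam1 or lies within 50 kb, in order of start, with the gap to the member under each name. Trim17 stands alone at 5.48 and 6.57, while Gzmm, at 2.86 and 3.40, is the other high point near Madcam1.

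In the rest of the Trim family few genes passed, in both directions. Of 70 other family genes in the files, 45 were tested, and their median LFC was -0.01 in IP and -0.04 in input, beside -0.00 and -0.02 over all tested genes. In IP, 2 were higher and 4 lower (4.44% and 8.89%, against 8.44% and 7.30% of all tested genes). In input, 1 was higher and 3 lower (2.22% and 6.67%, against 7.17% and 5.21%).

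Trim43a, a gene known from the early embryo, was the other family member that rose in both. It held 1.64, 1.10, 0.364 and 0.954 CPM in DTR IP and 2.63, 1.86, 0.613 and 0.761 CPM in DTR input. Control libraries held between 0 and 12 reads, the most in control IP pool 1 with 0.359 CPM. DTR IP pool 3, at 0.364 CPM, was hardly above that library. The LFC was 1.18 in IP (SE 0.30, limma adjusted p = 0.010) and 1.72 in input (SE 0.30, adjusted p = 5.6e-04), on 122 against 14 and 199 against 3 summed reads. Trim43a met the filter on low values only through DTR input, where it is high, and with no filter the adjusted p was 0.028 in IP and 0.0026 in input. The near-identical copies Trim43b and Trim43c held at most 11 reads a library, and reads shared between copies make the Trim43a level uncertain.

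Trim50, the family gene with the largest fall, encodes a ligase known from stomach and gut. It held 2.39, 2.42, 3.76 and 4.02 CPM in control IP, against 0.129, 0.214, 0.232 and 0.559 CPM in DTR IP. In the inputs the range was 2.45 to 3.51 CPM in controls and 0.148 to 0.579 CPM in DTR. The groups were apart in both, with LFCs of -2.40 in IP (SE 0.24, limma adjusted p = 1.0e-06) and -2.11 in input (SE 0.24, adjusted p = 5.0e-06). Trim50 met the filter on low values only through the control groups, where it is high, so these p values are not support by themselves.

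Trim71, a ligase and RNA-binding protein of the NHL branch that is a let-7 target, fell in IP with an LFC of -1.0 (SE 0.20, limma adjusted p = 0.0019). Its values were 30.9, 30.2, 25.6 and 17.1 CPM in control IP, against 9.58, 13.1, 15.4 and 13.5 CPM in DTR IP. In input, where it stood near 2 CPM, the LFC of -0.42 did not pass (adjusted p = 0.23), and the difference between IP and input did not pass either for any of the 68 genes named here. Trim71 was also the family gene most enriched in control IP over control input (LFC 3.44, adjusted p = 5.1e-10).

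Trim25, which ubiquitinates the RNA sensor RIG-I, fell by -0.81 in IP and -1.08 in input (limma adjusted p = 0.0094 and 0.0011). Trim2, a neuronal ligase of the NHL branch, fell by -0.54 in both (adjusted p = 3.6e-04 and 4.7e-04), from 153 ± 15.7 to 105 ± 10.6 CPM in IP. Trim59 passed in IP only (LFC 0.60, adjusted p = 0.043) with groups that overlapped, and lost the call without any 1 of 6 libraries. None of 7 tested genes of the COS branch, a branch that binds microtubules, and none of 4 of the PHD-bromodomain branch passed in IP or input. In the B30.2/SPRY branch to which Trim17 belongs, 18 of 34 other genes were tested, and the passing ones were Trim43a upward and Trim25 and Trim50 downward in both IP and input (5.56% and 11.1%). All tested genes passed at 8.44% upward and 7.30% downward in IP, and at 7.17% and 5.21% in input. Counts in branches this small do not set a branch apart from these shares.

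Set per kb of exon against 45 tested family genes, Trim17 was among the lower genes of the family in controls and near its top in DTR. It ranked 38 of 46 in control IP with 0.446 CPM per kb and 5 of 46 in DTR IP with 28.7 CPM per kb. In input it ranked 40 with 0.232 and 4 with 35.9 CPM per kb. Trim35 and Trim28 ranked 1 and 2 in each group. Control IP and control input differed for 19 of the 45 family genes (8 higher in IP and 11 lower), among them Trim6 (LFC 1.38) and Trim41 (1.07) above and Trim44 (-1.13) below, where 19.3% and 20.7% of all tested genes were higher and lower (4.12% and 3.56% by the full criteria). Trim6 met the filter on low values only through the IP groups, where it is high, so its call is not support by itself.

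**Figure D4:**
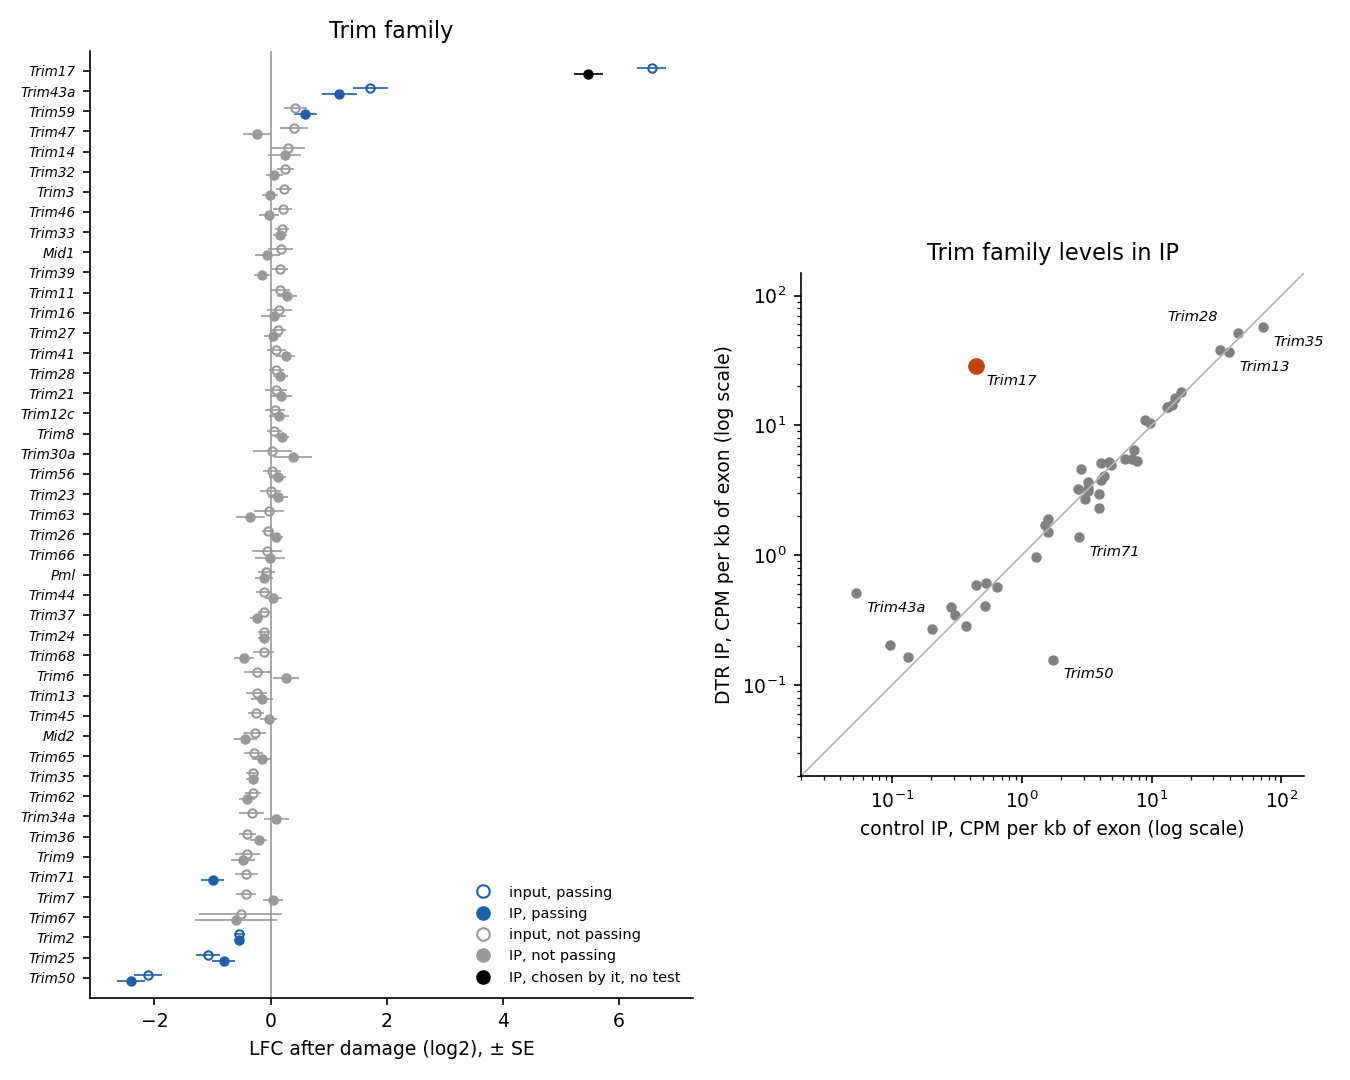
Left, LFC (log2) with its SE for each tested Trim family gene in input (open) and IP (filled), with blue for genes that passed, grey for genes that did not and black for the Trim17 IP value that chose it. Right, mean CPM per kb of exon in control IP and DTR IP (log axes, n = 4 each, diagonal at equality), where Trim17 at 0.446 and 28.7 lies farthest above the diagonal.

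Genes of proteins that Trim17 is known to act on or with passed at 0% upward and 7.69% downward in IP. All tested genes passed at 8.44% and 7.30% there, and at 7.17% and 5.21% in input. With 13 tested genes, the difference from these shares cannot be read as a result about the list. Of 16 such genes 13 were tested, and in IP 12 did not pass and Mapk9 fell slightly (LFC -0.36, limma adjusted p = 0.047), a call lost without any 1 of 6 libraries. In input none of 13 passed, with Mapk9 at -0.35 (adjusted p = 0.058, and 0.031 with the replicate block), and LFCs over the list ran from -0.35 to 0.25. Mcl1, the survival protein that Trim17 marks in neurons, averaged 181 ± 25.1 CPM in the IP of control pools and 175 ± 22.0 CPM in that of DTR pools, with an LFC of -0.03 (adjusted p = 0.89). In input its LFC was -0.06 (adjusted p = 0.85). These are RNA levels, and protein was not measured.

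In a list of 15 genes of neuronal apoptosis, 5 rose in IP and the same number in input (33.3% in each, beside 8.44% and 7.17% of all tested genes). They were Jun (LFC 2.75 and 2.74), the transcription factor that drives the response, Pmaip1 (1.66 and 2.15), Bbc3 (1.19 and 2.01) and Bax (0.75 and 0.97), which promote loss of mitochondrial integrity, and the stress factor Ddit3 (0.76 and 1.04). Their limma adjusted p was at most 2.3e-04 in IP and 7.8e-06 in input. Bmf, another promoter of cell death, fell in input (LFC -0.87, adjusted p = 0.014), with an adjusted p of 0.053 without control input replicate 1. The other 10 in IP and 9 in input did not pass, and the list median was -0.08 and 0.13.

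Adhesion receptors split between directions. Of 53 other adhesion genes in the files 48 were tested, and 8 were higher and 8 lower in IP (16.7% each, beside 8.44% and 7.30% of all tested genes), while 4 were higher and 6 lower in input (8.33% and 12.5%, beside 7.17% and 5.21%). The share higher in input was thus near that of all genes. The median LFC was -0.03 in IP and 0.00 in input. The highest LFC of the list was 1.76 in IP and 1.66 in input, below that of Madcam1.

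Among the endothelial and leukocyte adhesion genes, Icam1, the receptor for leukocyte integrins that cytokines induce, rose in both. It held 18.7, 25.9, 18.2 and 20.9 CPM in control IP, against 50.3, 56.3, 61.4 and 56.3 CPM in DTR IP. The groups lay far apart, with an LFC of 1.38 (SE 0.16, limma adjusted p = 4.6e-06), and in input the LFC was 1.66 (adjusted p = 4.3e-07). Vcam1, another receptor for Itga4 integrins, passed in IP alone (LFC 0.59, adjusted p = 0.027) with overlapping groups, a call lost without any 1 of 3 libraries, and in input its LFC of 0.38 had an adjusted p of 0.20, or 0.012 with the replicate block. The endothelial genes Esam and Pecam1 passed in IP (LFC 1.19 and 0.78), and in input their LFCs were 0.48 (adjusted p = 0.060, and 0.0099 with the replicate block) and 0.15 (adjusted p = 0.66). Selplg, the leukocyte ligand of selectins, rose by 1.76 in IP and 1.31 in input, from 0.294 to 0.495 CPM in control IP to 1.89 to 3.41 CPM in DTR IP. Mcam passed in input alone (LFC 0.36, adjusted p = 0.027, lost without any 1 of 6 libraries), and Cadm2 and Cntn4 were the other genes higher in IP.

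Adhesion genes of epithelia and neurons were among those that fell. Nrcam, a neuronal adhesion molecule of the L1 group, held 76.2, 87.2, 66.0 and 75.2 CPM in control IP, against 29.3, 27.6, 17.7 and 28.0 CPM in DTR IP. It fell by 1.61 on the log2 scale in IP (SE 0.15, limma adjusted p = 5.3e-07) and by 1.28 in input (SE 0.15, adjusted p = 8.7e-06). Cxadr, a tight junction receptor, had LFCs of -1.26 and -0.71, Cadm4 -0.90 and -0.99, Cd44, the hyaluronan receptor, -0.60 and -0.66, F11r -0.67 and -0.42 and Nectin3 -0.48 and -0.47, and all of these passed in both, the input call of F11r being lost without control replicate 4 or DTR replicate 2. Epcam, an epithelial marker, fell in IP (LFC -0.72, adjusted p = 3.7e-04), and in input its LFC of -0.33 had an adjusted p of 0.097, or 0.040 with the replicate block. Nectin4 fell in IP with an LFC of -0.92 and did not pass in input. In controls, 20 of the 48 were lower and 7 higher in IP than in input (41.7% and 14.6%, beside 20.7% and 19.3% of all tested genes), with Cntn1 (LFC -2.40), Esam (-1.92) and Pecam1 (-1.87) among the lowest and Nectin2 (1.48) the highest.

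Of the integrin genes listed with the Madcam1 receptors, Itgae passed and Itga4, Itgb7 and Itgb1 did not. Itga4 stood at 5.16 ± 2.25 CPM in the IP of control pools and 7.10 ± 2.07 in that of DTR pools (LFC 0.35, limma adjusted p = 0.32) and Itgb7 at 1.18 ± 0.699 and 1.48 ± 0.490 CPM (LFC 0.10, adjusted p = 0.85). In input their LFCs were 0.08 and 0.17, and neither passed. Itgb1, the other partner of Itga4, had LFCs of -0.08 and -0.18 and did not pass. Itgae, which pairs with Itgb7 to bind epithelial cadherin and not Madcam1, rose from between 0.229 and 0.407 CPM in control IP to 1.96, 0.712, 1.16 and 1.02 CPM in DTR IP (LFC 0.84, adjusted p = 0.0060), and by 1.36 in input (adjusted p = 8.2e-05). Itgae met the filter on low values only through the DTR groups, where it is high, so these p values are not support by themselves.

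Of 17 genes of the pathway that controls Madcam1 in vessels, 14 were tested, and 7 passed upward in IP and 7 in input (beside 8.44% and 7.17% of all tested genes), while none passed downward. Relb, the transcription factor of the non-canonical NF-kappaB branch, held 12.1, 11.8, 14.7 and 17.3 CPM in control IP, against 142, 125, 96.1 and 134 CPM in DTR IP. Its LFC was 3.09 in IP (SE 0.16, limma adjusted p = 2.3e-10) and 3.26 in input (SE 0.16, adjusted p = 9.1e-11). Its partner Nfkb2 held 14.6, 12.2, 9.64 and 13.6 CPM in control IP, against 133, 100, 60.2 and 110 CPM in DTR IP, with LFCs of 2.89 (adjusted p = 4.1e-08) and 3.17 in input (adjusted p = 1.3e-08). Neither gene overlapped between treatments, and pool 3 was the lowest DTR IP library for both, as for Trim17.

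Other genes of the pathway passed with smaller LFCs than Relb and Nfkb2. Nfkbia, the inhibitor that NF-kappaB itself induces, had LFCs of 1.33 and 1.34, the subunit gene Rel 0.76 and 1.18, the kinase Map3k14 0.78 and 1.03, and the deubiquitinase Tnfaip3 0.72 and 1.37, and all passed in both. The IP calls of Map3k14 and Tnfaip3 were lost without DTR IP replicate 1 and without any 1 of 3 libraries, respectively. Nfkb1 passed in IP (LFC 0.52, limma adjusted p = 0.011) and Rela in input (LFC 0.39, adjusted p = 0.036, lost without any 1 of 6 libraries). The ligands Ltb and Lta and the receptors Ltbr, Tnfrsf1a, Tnfrsf1b and Il1r1 did not pass. Tnf and Il1b were not tested, with at most 20 and 14 reads in any library. Nkx2-3 had 0 reads in all 16 libraries, which allows up to 0.107 CPM a library at 3 reads.

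**Figure D5:**
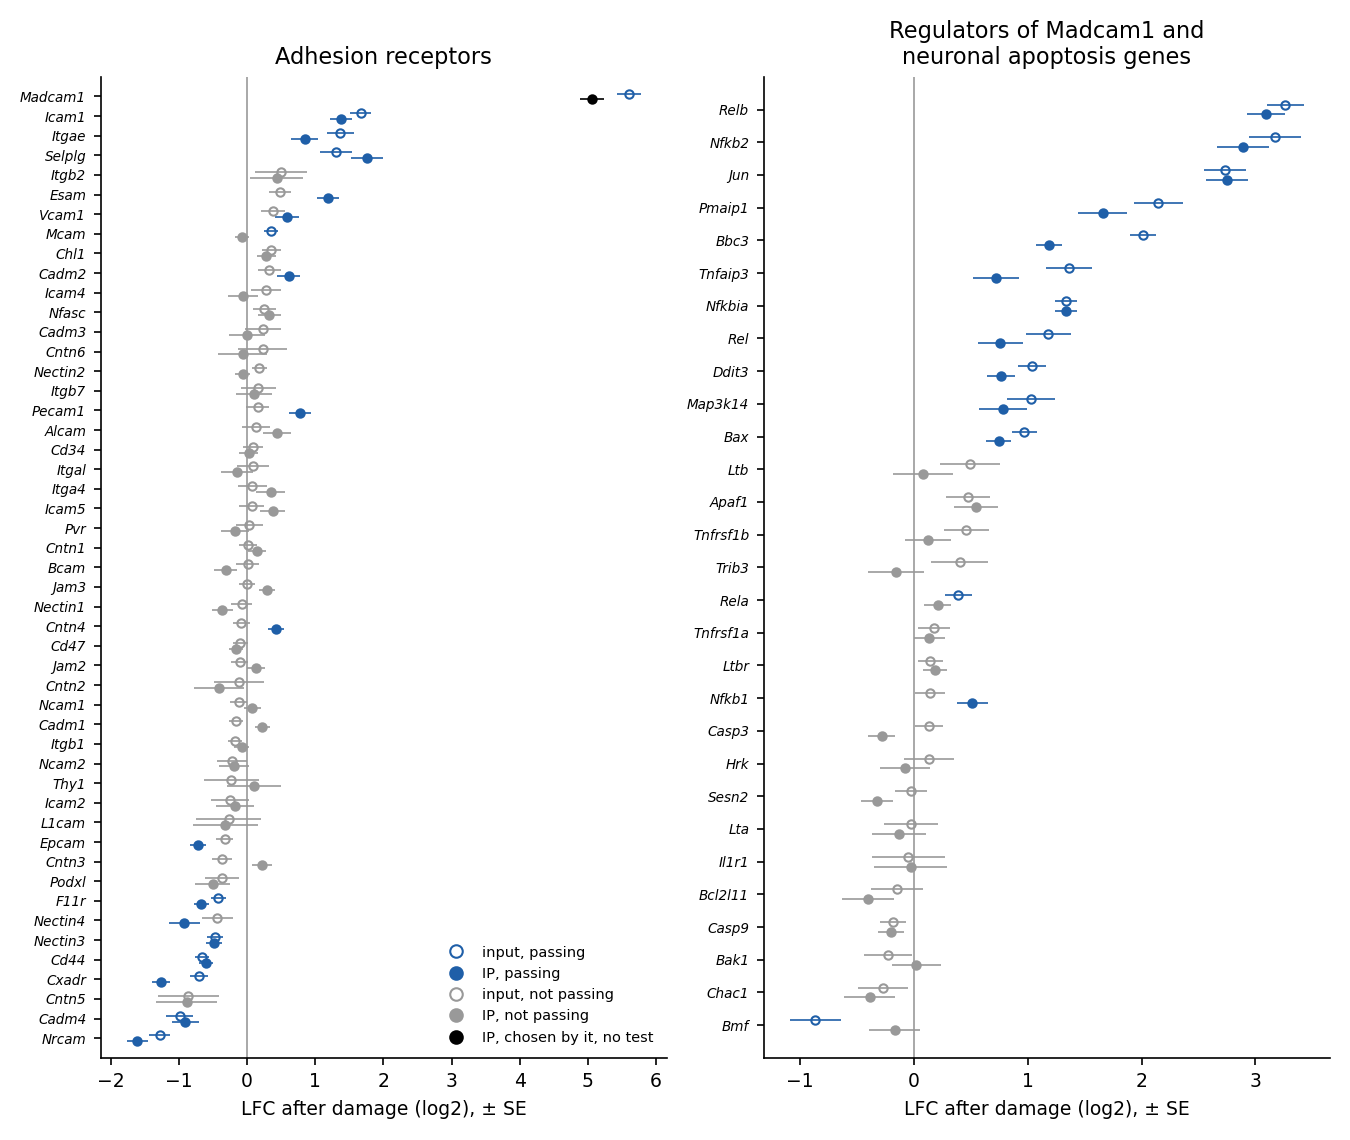
LFC (log2) with its SE in input (open) and IP (filled) for tested adhesion receptors (left) and for tested regulators of Madcam1 with neuronal apoptosis genes (right), with blue for genes that passed, grey for genes that did not and black for the Madcam1 IP value that chose it. Madcam1 at 5.05 and 5.60 stands apart from the other adhesion genes, and Relb and Nfkb2 lead the right panel at around 3.

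Genes whose pattern was most like that of each member were named by Pearson r over the 16 libraries, which fall into 4 groups, so that r mainly reflects the difference between treatments. For Trim17 they were Ptcra (r = 0.990), a chain of the pre-T-cell receptor, Relb (0.989), Zmynd15 (0.989), Wbscr25 (0.987) and Cnbd2 (0.986), and Madcam1 came at rank 10 (0.985). Within groups, the deviations correlated at 0.57 for Ptcra, 0.49 for Relb and 0.44 for Zmynd15, 0.43 for Cnbd2 and 0.13 for Wbscr25. For Madcam1 they were Gm8221 (0.995), Saa4 (0.994), 4833427G06Rik (0.994), Hist1h3i (0.992) and Prl2a1 (0.991), with Trim17 at rank 16. Saa4, a serum amyloid A gene, had 0 reads in all control libraries. Within groups, deviations correlated with those of Madcam1 at 0.49 for Gm8221 and Saa4, 0.38 for 4833427G06Rik, 0.01 for Hist1h3i and 0.04 for Prl2a1. Ptcra was higher in DTR IP with an LFC of 3.98 and Gm8221 with 3.40.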

How the data were processed

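The 16 libraries came from 8 pools, each split into input and IP, and were grouped by the labels. The authors aligned reads to GRCm38 (HISAT2 in the paper's methods, TopHat in the submitters' processing notes), used HTSeq to count reads per gene, and deposited the counts as CPM. The strand setting and annotation release are not given in the sources used here. Values were given for 47729 of 50316 listed genes, the other 2587 being NA throughout, and 173 genes lacked a name. Of the values above 0, 100% were whole multiples of 1 read (tolerance 0.01 read), so counts were recovered. Counting error alone sets the intervals and the 3-read limits, since reads of amplified libraries are not independent molecules.

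CPM were quantile normalized and log2 transformed with 0.5 added. A gene was kept if some group had 0.5 CPM or more in each of its 4 libraries. The 16 libraries were fitted together in limma (version 3.58.1, under R 4.3.3) using its trend option, and p was adjusted over 16994 genes by Benjamini-Hochberg. A gene passed at an adjusted p under 0.05. Folds of summed reads were given with exact 95% binomial (Clopper-Pearson) intervals. Positions came from GENCODE M21 (GRCm38) and promoters from RefSeq (GRCm38.p6), whose table gave Madcam1 and not Trim17. On simulated counts with 200 genes changed by 1 on the log2 scale, limma recovered 95% of them in the IP comparison and 92.5% in the input comparison. Of its calls there, 5.47% and 2.63% were false. The changed genes were all well counted and the simulated libraries independent, so low genes and libraries that deviate together were not covered.

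Input and IP of a pool share a replicate number by the methods, and same-numbered libraries deviated together in every pair of groups compared (lowest r 0.288 for control input and control IP, 0.312 for DTR input and DTR IP, 0.306 for control IP and DTR IP, 0.291 for control input and DTR input), so the number was used as a block in an alternative. Further alternatives were other normalizations, pseudocounts and filters, the compared groups alone, full criteria, edgeR (version 4.0.16) and DESeq2 (version 1.42.0) on recovered counts, and each library left out. Named genes were the members, the 5 next in rank, up to 5 per direction of the Trim family and adhesion lists with an adjusted p under 0.05 and no overlap, the whole partner, receptor and regulator lists, genes within 50 kb, and the 5 most alike. Trim59, Vcam1, Cadm2, Cntn4, Mcam, the passing apoptosis genes and marker genes were named after their values were seen, as list members. The members and all lists were chosen with earlier results of these data known.
1 gene of the receptor list is not reported here.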

Additional observations from a re-analysis of the deposited data

Results flagged for a closer look

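Among 13 genes with values given for each library, in 4 groups each (52 sets), 5 libraries stood apart from the other 3 of their group by Dixon's ratio at its 95% value, where chance gives about 1 set in 20. Trim43a in control IP pool 1 was the highest of its group at 0.359 CPM, on 12 reads. Egr4 in control IP pool 4 stood at 0.262 CPM, Selplg in control IP pool 2 at 0.495 CPM and Itgae in control input pool 4 at 0.362 CPM, all on at most 17 reads. Nrcam in DTR IP pool 3 was the lowest of its group at 17.7 CPM. No set of Trim17 or Madcam1 was among them.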

How the results depend on the processing

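In input, Trim17 kept its direction and passed under every alternative, with LFCs of 6.12 to 7.24, and of 6.31 to 6.71 without 1 library, and Madcam1 did so with 4.80 to 7.84 and 5.55 to 5.69. With the replicate block their LFCs were 6.57 and 5.60 (adjusted p = 6.9e-07 and 2.0e-07). In IP, their LFCs ran from 5.20 to 5.94 and from 4.23 to 7.36. The count of passing Trim family genes was 5 to 7, 4 to 5 and 16 to 19 without 1 library in the IP, input and control IP against input comparisons, and that of adhesion genes 13 to 16, 8 to 11 and 24 to 27. Under the full criteria the Trim family counts became 1, 1 and 3 and the adhesion counts 4, 3 and 12, because a fold and a separation are asked for as well. Without a filter the Trim family count in input became 7. With the replicate block the counts were 9, 6, 23, 22, 14 and 35. Over all genes, limma called 2674 in IP and 2104 in input, edgeR 2682 and 2070, DESeq2 3114 and 2432, and limma with the block 3783 and 2913. Of the IP calls 53.6% were higher, against 62.4% without quantile normalization, 49.8% by edgeR and 50.6% by DESeq2.

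Of 135 single-gene comparisons, those of genes named in the text and so chosen after their values were seen, 113 kept direction and call under all alternatives. Signs turned in 9 cases, all without 1 library and all of genes that did not pass: LFCs ran from -0.068 to 0.30 for Itgb7, from -0.14 to 0.014 for Itgb1 and from -0.10 to 0.048 for Mcl1 in IP, and from -0.037 to 0.28 for Trim11 and from -0.022 to 0.17 for Itga4 in input. In IP, Trim59 lost its call without control IP replicates 1, 2 or 4 or DTR IP replicates 1, 2 or 3 (adjusted p 0.050 to 0.13), Mapk9 without control IP replicates 1, 2 or 3 or DTR IP replicates 2, 3 or 4 (0.059 to 0.15), Vcam1 without control IP replicate 3 or DTR IP replicates 1 or 2 (0.068 to 0.11), Tnfaip3 without control IP replicate 1 or DTR IP replicates 2 or 3 (0.052 to 0.080) and Map3k14 without DTR IP replicate 1 (0.061). In input, Rela lost it without control replicates 1, 2 or 3 or DTR replicates 1, 2 or 4 (0.068 to 0.12), Mcam without control replicates 1, 2 or 4 or DTR replicates 1, 2 or 3 (0.051 to 0.11), F11r without control replicate 4 or DTR replicate 2 (0.055 to 0.064) and Bmf without control replicate 1 (0.053). Tpgs1 in IP passed without control IP replicate 4 (0.0058), Epcam in input without control replicate 1 (0.049) and Mapk9 in input without control replicate 3 (0.038). Under other processing, calls in IP were lost by Trim59 with edgeR (0.056), and by Trim59, Vcam1 and Mapk9 with no filter (0.081, 0.068 and 0.074) or only the compared groups (0.099, 0.094 and 0.13), by Mapk9 without quantile normalization (0.12), and in input by Rela with no filter (0.063). Calls were gained in IP by Hist3h2bb-ps without quantile normalization, with median centring and with edgeR (0.027 to 0.039), and in input by 2310058D17Rik without quantile normalization and with median centring (0.037 and 0.050), by Tpgs1, Esam, Vcam1 and Mapk9 with only the compared groups (0.011, 0.020, 0.031 and 0.029), by Mapk9 with median centring (0.044), and by Epcam and Mapk9 with DESeq2 (0.029 and 0.024). The cause was not tested. Among the genes named, the replicate block changed no call beyond those given above, while the list counts show that it added calls of genes not named. Depth limits the control levels of Madcam1, which rest on 1 to 10 reads a library.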
